A study of Danio rerio with 4 samples.

Results

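Collagens are the trimeric proteins that give connective tissue its strength. The collagen genes were followed in whole zebrafish embryos and larvae with and without a mutation of Msp, the macrophage stimulating protein encoded by mst1. They were taken as every non-control probe whose symbol on the array reads col, a number, a and a number, which gave 78 of 43603 probes and 32 of 26702 genes. One of the 32, col4a3bp, matches this pattern but encodes a ceramide transfer protein (now named cert1) and was kept apart, leaving 74 probes of 31 collagen chain genes. Of these chains, 27 were measured, that is, in at least 1 RNA pool both arrays had the brightest probe well above background. The 4 genes that were not measured were col4a1 and col4a4 of type IV, col14a1 of type XIV and col28a1 of type XXVIII.

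The groups were Msp mutants at 6 dpf (days post fertilisation), wild types at 6 dpf, Msp mutants at 3 dpf and wild types at 3 dpf, all of the wik strain, raised at 28 degrees with no treatment. Each group was 1 pool of 30 whole embryos. Mutant and wild type RNA of a stage were hybridised together on 2 arrays of a two-colour Agilent zebrafish chip, with the dyes exchanged between the arrays. The labels name a dye swap and 1 extraction per group, so both arrays of a stage were taken to hold the same pools; if so, the SD over them measures labelling and hybridisation and not the spread between clutches. The labels say that mutants and wild types came from crosses and do not describe the allele, so it is not known whether the mst1 probe lies in an altered stretch. The 4 arrays lay on 1 slide, and the 2 stages lay on different arrays, so array and stage cannot be told apart.

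A collagen chain folds with its partners into a triple helix in the endoplasmic reticulum, after enzymes have hydroxylated it, and is then secreted, trimmed and cross-linked. Fibrillar chains (types I, II, V and XI) build the fibres of skin, tendon, cartilage and the notochord sheath. Type IV forms the mesh of basement membranes, and type X is laid down by maturing cartilage and, in zebrafish, also by bone-forming cells. Type IX coats cartilage fibrils. The others include the short-chain type VIII networks, the beaded filaments of type VI, and types XV, XVII, XVIII, XXVII and XXVIII.

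The mutated gene itself, mst1, was lower in mutants on every array. On the log2 scale its mutant to wild type ratios were -1.01 and -1.24 on the 6 dpf arrays and -0.70 and -0.61 on the 3 dpf arrays. Over both stages the mean was -0.89 (limma, adjusted p = 0.0417). Median spot signals were 146.5 to 154 in green and 167 to 187 in red, against local backgrounds of 47.5 to 49 in green and 87 to 87.5 in red. The log2 ratios of the swapped arrays correlated at 0.318 across probes at 6 dpf and 0.335 at 3 dpf; probes are not independent replicates. Signals below are log2 values after background correction and normalization, averaged over both dyes of a pool; they are compared between pools and not between genes.

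Collagen transcripts were lower at 6 dpf than at 3 dpf across most classes. The 4 pools were fitted by a model with terms for stage and genotype (limma, 1 residual degree of freedom), and a gene was called where its adjusted p was under 0.05 and its log2 change was at least 1. By this rule 19 of 27 chains fell and 0 rose, while 5.39% of the 18917 genes measured fell and 4.93% rose. The median change of the chains was -1.41, against 0.01 over all genes. Without normalization between arrays the median was -1.70, against -0.23 over all genes, 20 chains fell, and 81.9% of all called genes fell, against 52.2% with it. With it, the median was -1.31 in the mutant pools and -1.41 in the wild type pools. In 26 of 27 chains both 6 dpf pools were below both 3 dpf pools, an order that 39.3% of all genes showed. At an adjusted p under 0.05 without the fold limit, 25 chains fell, against 30.1% of all genes. The residual of the stage fit is the difference between the genotypes in their change from 3 to 6 dpf. Variation that both pools of a stage share, such as that of their arrays, therefore does not enter its SE or p-values. In these bulk samples, fewer cells of a type and less RNA per cell cannot be told apart.

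**Figure D1:**
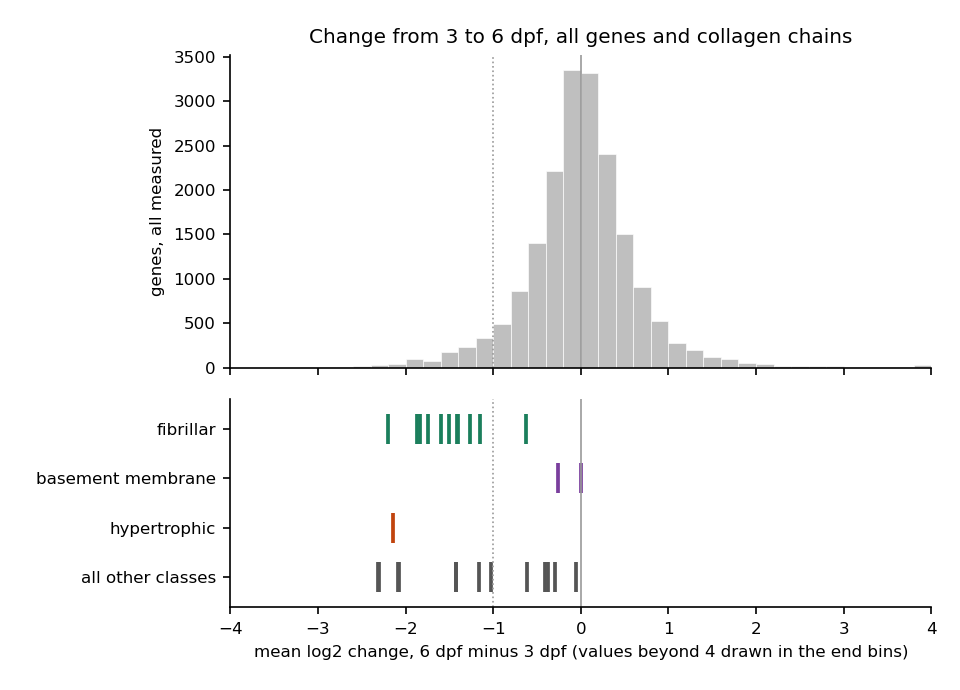
The grey bars count all 18917 genes by their mean log2 change, 6 dpf minus 3 dpf, and the ticks below are the 27 collagen chains by class. The dotted line is a log2 change of -1. The fibrillar ticks lie between -2.20 and -0.62, and the basement membrane ticks at -0.26 and 0.00.

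The fibrillar chains of cartilage and notochord fell without exception. These are types II and XI, where type II is the bulk of a cartilage fibril and type XI sits in its core. The main chain of type II, col2a1a, had signals of 14.70 in mutants and 14.79 in wild types at 6 dpf, against 16.47 in mutants and 16.66 in wild types at 3 dpf. Both 6 dpf pools were well below both 3 dpf pools, and genotypes of a stage were close. The change of col2a1a was -1.83 ± 0.07 (SE; limma, adjusted p = 3.97e-05), or 3.54-fold lower. Its paralogue col2a1b changed by -1.75 ± 0.07, and was 3.36-fold lower. The type XI chains col11a1a, col11a1b and col11a2 changed by -1.87, -1.41 and -2.20.

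Type I collagen, the fibre of skin, tendon and bone, fell as well. The chain col1a1a had signals of 11.96 in mutants and 11.78 in wild types at 6 dpf, against 13.36 in mutants and 13.57 in wild types at 3 dpf. Its change was -1.60 ± 0.11 (SE; limma, adjusted p = 0.000121). The second alpha 1 gene, col1a1b, changed by -1.51 ± 0.09. The alpha 2 chain col1a2 changed by -1.26 ± 0.10. Type V, which starts fibrils and sets their width together with type I, had col5a3b at -1.40 and col5a2a at -1.15. The remaining type V gene, col5a3a, was past the adjusted p but not the fold limit, at -0.62 ± 0.07 (limma, adjusted p = 0.000899). Thus 10 of 11 fibrillar chains were called, with a class median of -1.51, and col5a3a was the exception.

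The 2 largest changes among the chains were in type IX. The chain col9a1b had signals of 11.14 in mutants and 11.05 in wild types at 6 dpf, against 13.29 in mutants and 13.54 in wild types at 3 dpf. It changed by -2.32 ± 0.10 (SE; limma, adjusted p = 4.28e-05), which is 5.0-fold lower. Its partners col9a2 and col9a3 changed by -2.08 ± 0.11 and -2.30 ± 0.08. All 3 measured chains of this class, the fibril-associated collagens, fell. The class's remaining gene among those matched by symbol, col14a1, was not measured.

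The hypertrophic chain col10a1a fell in both genotypes but to different depths. Its signal was 8.49 in mutants and 7.45 in wild types at 6 dpf, against 10.20 in mutants and 10.03 in wild types at 3 dpf. The 3 dpf pools were close together, and the 6 dpf pools lay apart. The mean change was -2.14 ± 0.19 (SE; limma, adjusted p = 0.000318), made of -1.71 in mutants and -2.58 in wild types.

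**Figure D2:**
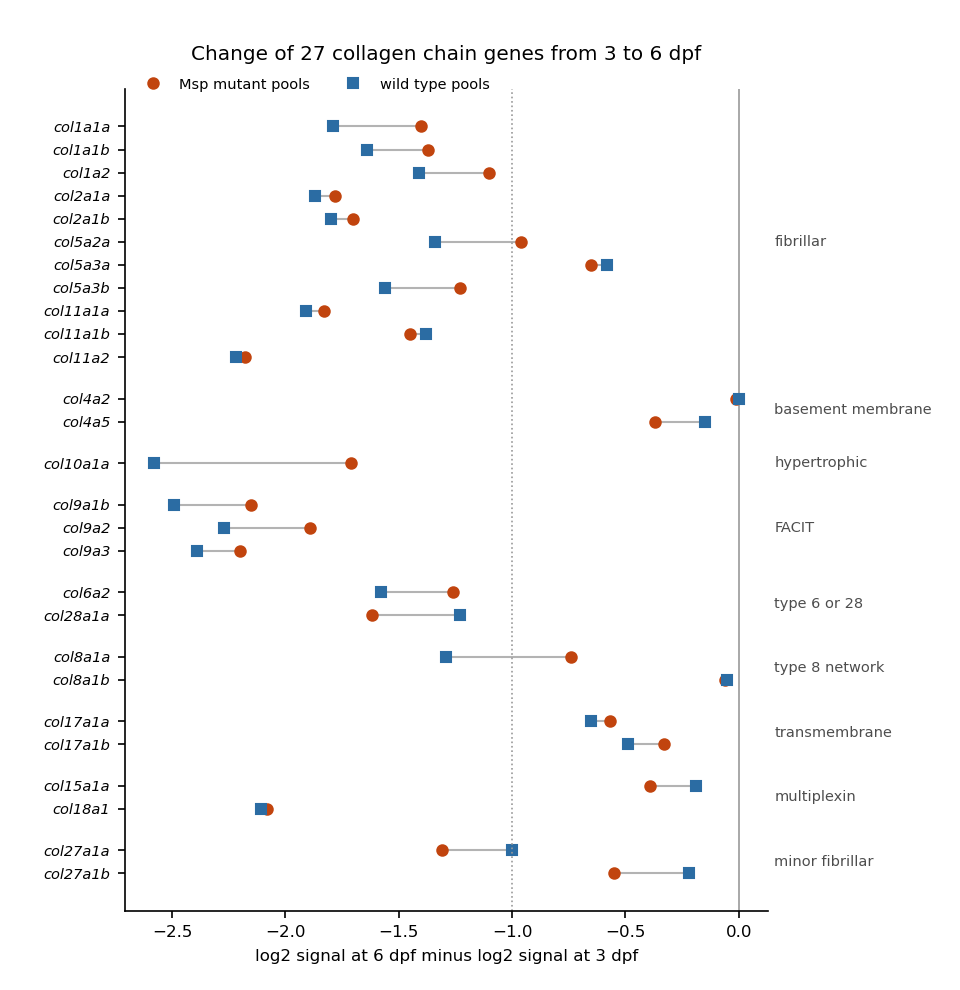
Each row is 1 collagen chain gene, with its log2 change from 3 to 6 dpf in the mutant pools (circles) and in the wild type pools (squares), grouped by class. The dotted line is a log2 change of -1. The points of col10a1a lie farthest apart, at -1.71 in mutants and -2.58 in wild types, and those of col4a2 lie at -0.01 and 0.00.

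No basement membrane chain of type IV was called. The chain col4a2 had signals of 9.12 in mutants and 9.23 in wild types at 6 dpf, against 9.13 in mutants and 9.23 in wild types at 3 dpf. All 4 pools lay within 0.12 of each other, and the change of 0.00 ± 0.07 did not pass the test (limma, adjusted p = 0.975). For col4a5, a chain of the mesh that guides retinal axons in zebrafish, the signals were 13.56 in mutants and 13.55 in wild types at 6 dpf, against 13.93 in mutants and 13.70 in wild types at 3 dpf. Its change of -0.26 ± 0.09 passed the adjusted p (limma, 0.0413) but not the fold limit. A second, dimmer probe of col4a5 gave -1.03 in mutants and -1.17 in wild types, so the probes of this gene disagree. Of the 4 type IV chains that matched by symbol 2 were measured, and the difference between this class and the others was not tested.

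The remaining classes held 10 chains, of which 5 fell past both limits. The endostatin precursor col18a1, a basement membrane proteoglycan, had the largest of these changes, at -2.09 ± 0.07 (SE; limma, adjusted p = 2.91e-05). Its signals were 8.99 in mutants and 9.02 in wild types at 6 dpf, against 11.07 in mutants and 11.13 in wild types at 3 dpf. Dimmer probes of col18a1 gave changes of -0.73 and -0.55, short of the fold limit. The col18a1 probe at -0.55 was not well above background on any 6 dpf array. The related col15a1a had a log2 change of -0.29 ± 0.08, short of the fold limit. Type VI, represented by col6a2 alone, changed by -1.42, and col28a1a by -1.43. Dimmer probes of col28a1a gave -0.42 and -0.39. Neither was well above background on any 6 dpf array. The symbols of the type XXVIII genes are those of the array. RefSeq now names the array's col28a1a as col28a2a, and the array's col28a1, which was not measured, as col28a1a. Type XXVII, a minor fibrillar collagen of cartilage and notochord, fell at col27a1a, by 1.16. A dimmer probe of col27a1a gave -0.55. The change of col27a1b was -0.38, short of the fold limit.

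The short-chain gene col8a1a, whose loss disturbs the notochord in zebrafish, was close to the limit. It changed by -1.02 ± 0.14 (SE; limma, adjusted p = 0.00134), with -0.74 in mutants and -1.29 in wild types. Leaving out the 6 dpf array with the mutant in Cy3 made the change -0.81, under the fold limit, and fitting stage alone gave an adjusted p of 0.0656 (1.63e-06 to 0.0656 over all alternatives). Its paralogue col8a1b, at -0.06 ± 0.07, did not pass the test. The hemidesmosome chains of basal skin cells, col17a1a and col17a1b, had changes of -0.61 ± 0.07 and -0.41 ± 0.08, both past the adjusted p and short of the fold limit.

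Other probes of the same genes mostly ran the same way. Of the 67 chain probes above background, 66 had a negative mean change and 43 had a change of -1 or lower. In 19 of the 21 chains with several such probes, the brightest probe fell more than the dimmest, with median changes of -1.51 at the brightest and -0.94 at the dimmest. Some of the dimmest probes, such as those of col18a1 and col28a1a, were not well above background on any 6 dpf array. Probes of 1 gene share a transcript and are not replicates. The exception among the 67 was a col11a1a probe with signals of 11.73 in mutants and 11.72 in wild types at 6 dpf, against 11.63 in mutants and 11.50 in wild types at 3 dpf. The other 3 probes of col11a1a changed by -2.11, -1.87 and -1.42.

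**Figure D3:**
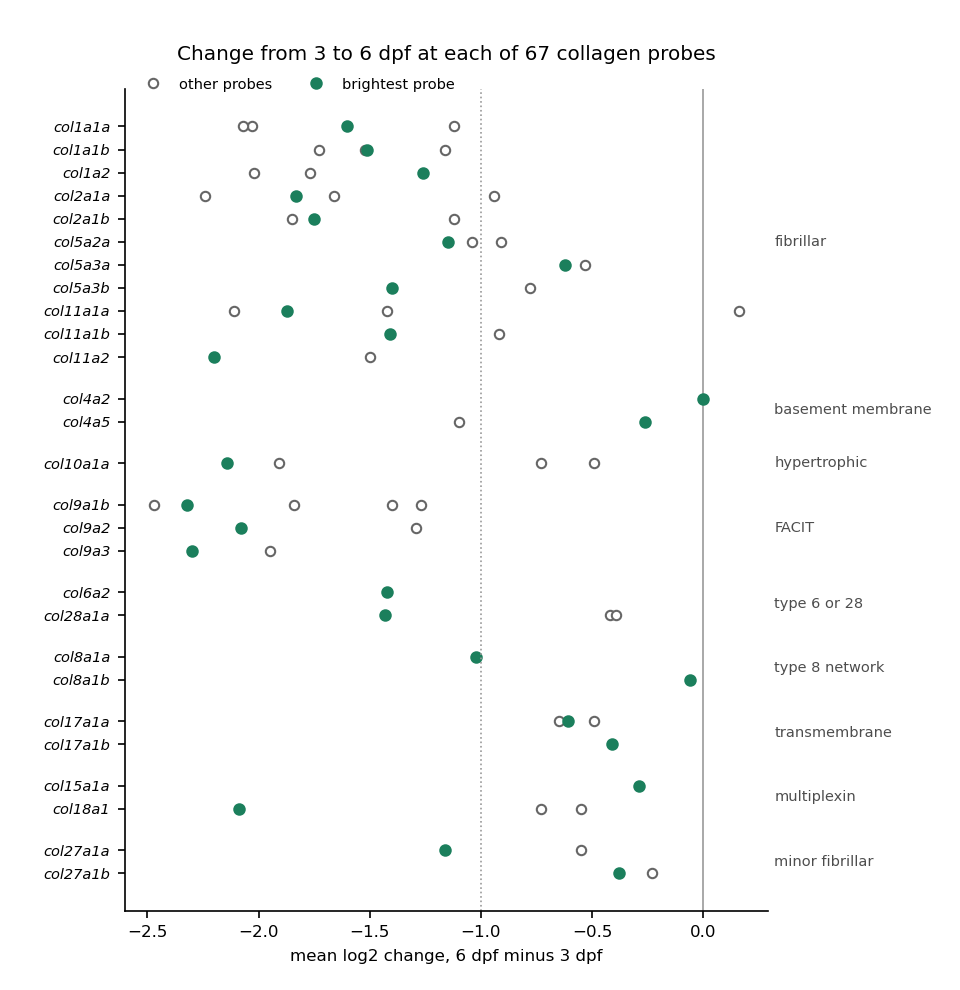
Each row is 1 collagen chain gene and each point is 1 probe, placed by its mean log2 change from 3 to 6 dpf. Filled points are the brightest probe of a gene, used for its values, and open points are its other probes. A single open point of col11a1a lies above 0, at 0.16.

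Of the enzymes and chaperones that make collagen, 31 of a list of 54 were measured, and 12 of these fell and 0 rose, beside 5.39% and 4.93% of all genes. The median change was -0.71. Positive changes short of the fold limit were those of mia2 (0.66), bmp1b (0.43), loxl1 (0.35) and colgalt2b (0.08). The lysyl hydroxylases plod1a and plod3, which modify lysines before cross-linking, changed by -1.92 and -1.55. The prolyl hydroxylase subunit p4ha1b changed by -1.35, and crtap, of the prolyl 3-hydroxylation complex, by -1.27. Folding helpers among the 12 were ppib at -1.37, fkbp14 at -1.61, fkbp10b at -1.25 and serpinh1b, the collagen chaperone Hsp47, at -1.21. Coat proteins of the vesicles that leave the endoplasmic reticulum, sec24d and sec13, changed by -1.20 and -1.28. The cross-linking oxidases loxa and loxl2b changed by -1.16 and -1.54.

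Genes that degrade, bind or organise collagen changed in both directions. Of 26 measured genes on a list of 43, 9 fell and 1 rose, beside 5.39% and 4.93% of all genes. The median change was -0.50. Positive changes short of the fold limit included timp2a (0.8), itga11a (0.56), bgnb (0.4) and mmp9 (0.34). Smaller positive changes were those of bgna (0.13), ddr2b (0.09), mmp16a (0.07) and kera (0.01). The matrix proteases mmp2 and mmp14a changed by -1.31 and -1.0, and timp2b, a protease inhibitor, by -1.23. The fibril-binding proteoglycans lum, dcn and fmoda changed by -1.65, -1.11 and -1.08. The matrix proteins sparc, tgfbi and fn1a changed by -1.23, -1.33 and -1.12, and the fibronectin gene fn1b was the 1 that rose, by 1.08 ± 0.08 (SE; limma, adjusted p = 0.000141). Both lists were chosen with earlier results of these data known.

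Markers of the tissues that make collagen also changed between the stages, and their part in the fall was not tested. Of all genes, 5.39% fell and 4.93% rose by the same rule. In the cartilage list 12 of 16 genes were measured, with neither aggrecan gene among them. Of these 6 fell, with hapln1a at -3.05, matn1 at -2.47 and hapln1b at -1.02 among them, and 0 rose. The cartilage genes not called changed by -0.51 (ucmab) to 0.04 (ucmaa), and the list median was -0.77. The log2 of this list's summed signal was 13.76 in mutants and 13.83 in wild types at 6 dpf, against 15.50 in mutants and 15.57 in wild types at 3 dpf. The brightest cartilage gene in every pool was matn1, at 14.75 in mutants and 14.78 in wild types at 3 dpf. In the fibroblast and tendon list, with 9 of 12 genes measured, 3 fell, led by postnb at -2.11. Those not called changed by -0.79 (prrx1a) to 0.09 (tnmd), and the list median was -0.42. The log2 of this list's summed signal was 12.89 in mutants and 12.79 in wild types at 6 dpf, against 14.14 in mutants and 14.22 in wild types at 3 dpf. For the notochord list the sums were 14.51 in mutants and 14.50 in wild types at 6 dpf. At 3 dpf they were 15.03 in mutants and 14.98 in wild types. In this list 2 of 9 genes fell, epyc at -1.16 and matn4 at -1.4. Its other genes changed by -0.46 (krt18a.1) to 0.25 (ihhb), and none of those was called. The bone list had 7 of 13 genes measured, neither runx2 gene among them, of which 2 fell and 1, bglap, rose by 1.07. The median change of the bone list was 0.21. Positive changes were those of bglap, alpl (0.53), spp1 (0.35) and phex (0.21). Negative changes were those of ifitm5 (-1.7), sparc (-1.23) and sp7 (-0.27). The log2 of the list's summed signal was 12.69 in mutants and 12.55 in wild types at 6 dpf. At 3 dpf it was 13.47 in mutants and 13.48 in wild types. The brightest gene of the list in every pool was sparc, at 13.26 in mutants and 13.29 in wild types at 3 dpf. For skeletal muscle the sums were 19.67 in mutants and 19.77 in wild types at 6 dpf, against 19.71 in mutants and 19.92 in wild types at 3 dpf. Of its 13 genes 2 fell, acta1b at -2.79 and tnnt3a at -2.17, and 0 rose. The muscle genes not called changed by -0.63 (mylpfb) to 0.81 (desma), and the list median was 0.05. In the epidermis list 2 of 10 genes fell, and1 at -2.32 and cldni at -1.15, and in the endothelium list 0 of 4 did. The genes epyc and matn4 stand in both the cartilage and the notochord list, dcn and lum in both the binding and the fibroblast list, and sparc in both the binding and the bone list.

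No collagen chain was called different between mutants and wild types over both stages. Over both stages, 0 of 27 chains passed the test of the 2 stage means against 0 (limma, adjusted p under 0.05). Among all genes 1.07% passed it. An unadjusted p under 0.05 (limma) was seen in 3 of 27 chains and in 2571 of the 18917 genes measured. The adjusted p of the chains ranged from 0.0766 to 0.991. The chains had a median log2 ratio of 0.08 between mutants and wild types at 6 dpf, and -0.04 at 3 dpf, against 0.01 over all genes at each stage. Within a stage there is 1 pool per genotype and no test, so a gene was counted by size where its mean log2 ratio was at least 1 in either direction, with at least 0.5 of the same sign on both arrays. This rule counted 1 chain at 6 dpf and 1 at 3 dpf.

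**Figure D4:**
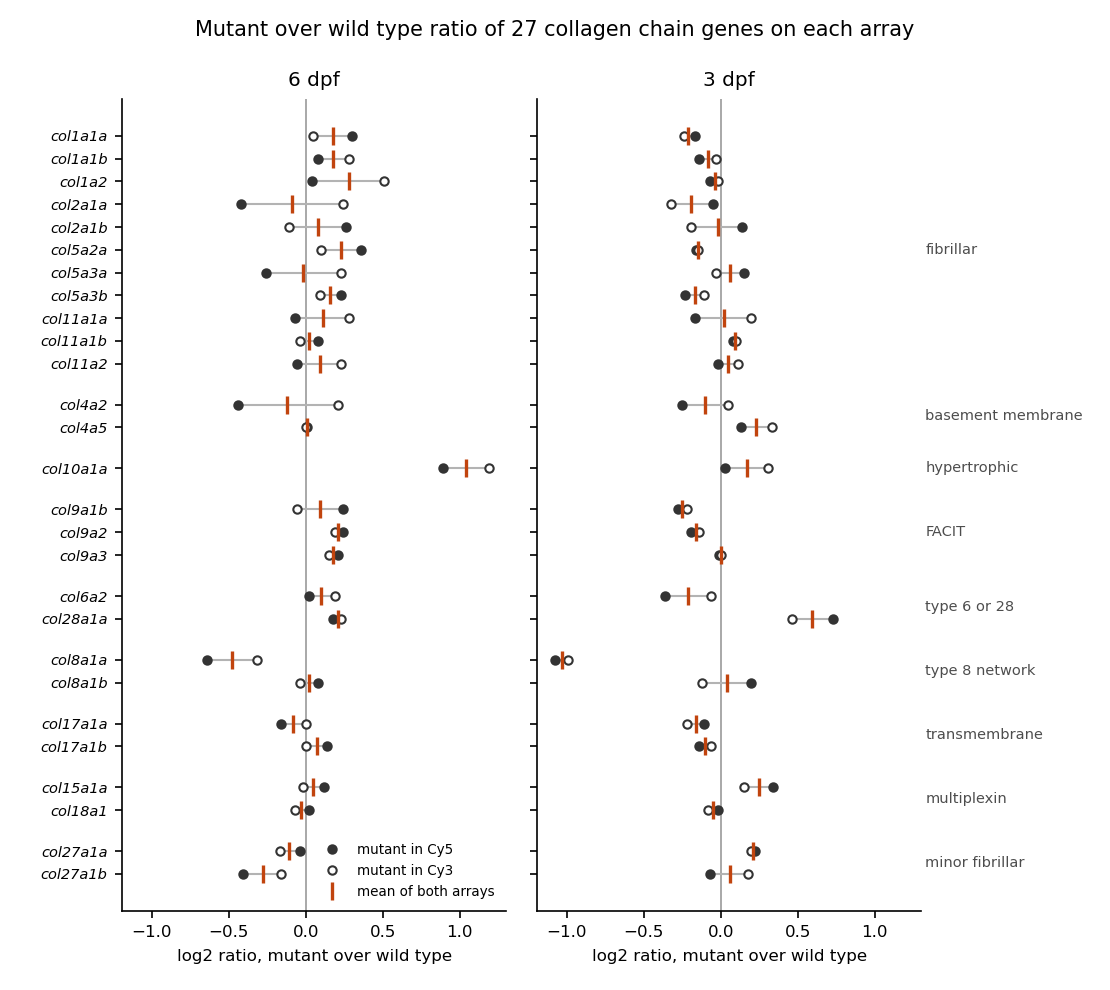
Each row is 1 collagen chain gene, with the log2 mutant to wild type ratio on the array with the mutant in Cy5 (filled), on the array with the mutant in Cy3 (open) and their mean (bar), at 6 dpf (left) and 3 dpf (right). The ratios of col10a1a at 6 dpf (0.89 and 1.19) and of col8a1a at 3 dpf (-1.08 and -0.99) lie apart from the other chains.

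The chain counted at 6 dpf was col10a1a, higher in mutants. Its log2 ratios were 0.89 and 1.19 on the 6 dpf arrays (1.04 ± 0.21, SD over 2 arrays) and 0.03 and 0.31 at 3 dpf (0.17 ± 0.19). Among all genes 0.254% were higher in mutants at 6 dpf by this rule. The ratio was positive on both arrays at 6 dpf at each of its other 3 probes, at 0.50 and 0.74, at 0.39 and 0.30, and at 0.12 and 0.10. These probes were also dimmer, and the last was well above background on only 1 array in each 6 dpf pool. Averaged over its probes col10a1a gave 0.53, below the size limit, as were the 0.89 left without the 6 dpf array with the mutant in Cy3 and the 0.94 with no background subtraction, and over the alternatives the 6 dpf ratio ranged from 0.53 to 1.65. Over both stages its mean of 0.60 ± 0.19 did not pass the test (SE; limma, adjusted p = 0.262, 0.0712 to 0.433 over the alternatives).

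Bone and cartilage markers were measured beside it, and their part in the result was not tested. In the bone list 3 of 7 measured genes were above 0 at 6 dpf and 0 were counted by the size rule. The list median was -0.04. Ratios were 0.28 for ifitm5, 0.24 for sparc, 0.09 for sp7, -0.04 for bglap and phex, -0.09 for alpl and -0.41 for spp1. In the cartilage list 8 of 12 were above 0 at 6 dpf, 0 were counted by size, and the median was 0.06. Of the 12 cartilage genes, 1 passed the test over both stages, beside 1.07% of all genes. This was cnmd, a secreted inhibitor of vessel growth, lower in mutants at -0.70 (limma, adjusted p = 0.0198). Its log2 ratio was -0.68 ± 0.36 at 6 dpf and -0.72 ± 0.51 at 3 dpf (SD over 2 arrays). Over the alternatives its mean ranged from -0.88 to -0.14, and its adjusted p from 0.000109 to 0.388 (limma).

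The chain counted at 3 dpf was col8a1a, lower in mutants. The log2 ratios were -0.64 and -0.32 at 6 dpf (-0.48 ± 0.23, SD over 2 arrays) and -1.08 and -0.99 at 3 dpf (-1.03 ± 0.07). All 4 arrays ran the same way, and the size at 3 dpf was about the limit itself, which the -0.99 left without the array with the mutant in Cy5 misses. Lower by this rule at 3 dpf were 0.169% of all genes. Over both stages the mean was -0.76 ± 0.14 (SE; limma), and the adjusted p of 0.0766 did not pass the test. It passed in 4 of 12 alternatives (no filter on dim probes, without either 3 dpf array, and without the 6 dpf array with the mutant in Cy3), over which the adjusted p ranged from 0.00103 to 0.248. The gene has 1 probe, so no other probe can be set beside it, and its paralogue col8a1b had ratios of 0.08 and -0.04 at 6 dpf and 0.20 and -0.12 at 3 dpf.

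**Figure D5:**
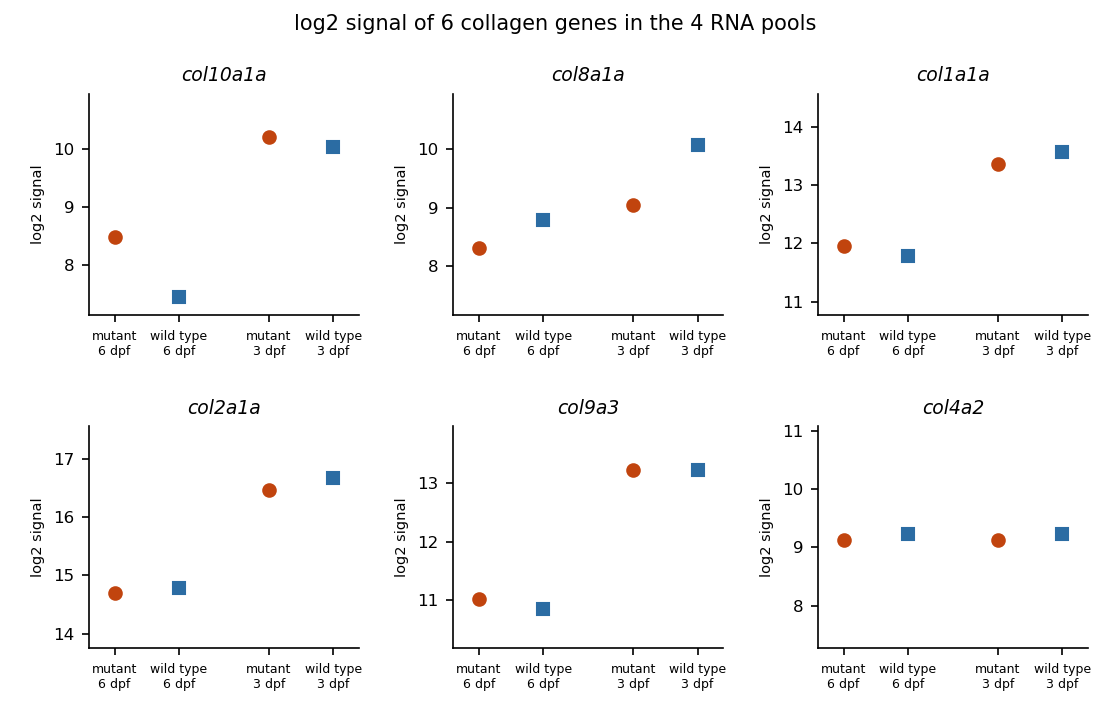
Each panel shows the log2 signal of 1 collagen gene in the mutant (circles) and wild type (squares) pools, at 6 dpf on the left and 3 dpf on the right, 1 point per pool. All panels span the same number of log2 units, and levels are not comparable between panels. The 6 dpf points of col10a1a are 8.49 in mutants and 7.45 in wild types, and the 4 points of col4a2 lie between 9.12 and 9.23.

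With a smaller size limit of 0.5 and the same sign on both arrays, 1 more chain was counted, col28a1a at 3 dpf, where 1.19% of all genes were higher in mutants by that rule. Its log2 ratios were 0.18 and 0.23 at 6 dpf, against 0.73 and 0.46 at 3 dpf. A second probe gave 0.32 and 0.16 at 3 dpf, and another gave -0.16 and -0.15, so its probes disagree in sign. Over both stages its mean was 0.40 ± 0.11 (SE; limma, adjusted p = 0.193).

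Type I chains had small ratios that were above 0 at 6 dpf and below 0 at 3 dpf. For col1a1a the log2 ratios were 0.30 and 0.05 at 6 dpf, against -0.17 and -0.24 at 3 dpf. For col1a1b they were 0.08 and 0.28 at 6 dpf, against -0.14 and -0.03 at 3 dpf, and for col1a2 0.04 and 0.51 at 6 dpf and -0.07 and -0.02 at 3 dpf. All 11 type I probes had a positive mean at 6 dpf and a negative mean at 3 dpf, although these probes share 3 genes and the same 4 arrays. The difference between the stages has no residual degree of freedom and was not tested. In the fibroblast and tendon list the median ratio was 0.08 (6 dpf) and -0.06 (3 dpf), and 8 of 9 genes were above 0 at 6 dpf and 2 of 9 at 3 dpf; whether the same pools differ in such cells was not tested. In the list of collagen enzymes and chaperones the median was -0.04 at 6 dpf and -0.08 at 3 dpf, with 12 of 31 genes above 0 at 6 dpf.

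Type V and type IX showed similar small values. The ratios of col5a2a were 0.36 and 0.10 at 6 dpf, against -0.16 and -0.15 at 3 dpf, and those of col5a3b were 0.23 and 0.09 at 6 dpf, against -0.23 and -0.11 at 3 dpf. The exception in type V was col5a3a, with -0.26 and 0.23 at 6 dpf and 0.15 and -0.03 at 3 dpf. In type IX, col9a2 had 0.24 and 0.19 at 6 dpf and -0.19 and -0.14 at 3 dpf, and col9a1b had 0.24 and -0.06 at 6 dpf and -0.28 and -0.22 at 3 dpf. In 8 of 27 chains the mutant was above wild type on both 6 dpf arrays and below it on both 3 dpf arrays, a pattern that 5.5% of all genes showed.

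In the type II and XI chains and col4a2 the sign of the ratio changed with the dye at 6 dpf. The chain col2a1a had -0.42 and 0.24 at 6 dpf and -0.05 and -0.32 at 3 dpf, and col2a1b had 0.26 and -0.11 at 6 dpf and 0.14 and -0.19 at 3 dpf. For col11a1a they were -0.07 and 0.28 at 6 dpf, against -0.17 and 0.20 at 3 dpf, and for col11a2 -0.06 and 0.23 at 6 dpf and -0.02 and 0.11 at 3 dpf. The ratios of col4a2 were -0.44 and 0.21 at 6 dpf, against -0.25 and 0.05 at 3 dpf. For col4a5 they were 0.01 and 0.00 at 6 dpf, against 0.13 and 0.33 at 3 dpf. For col11a1b they were 0.08 and -0.04 at 6 dpf, against 0.08 and 0.10 at 3 dpf. At 3 dpf the swapped arrays shared a sign in col2a1a, col11a1b and col4a5 of these genes.

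Among col6a2, col15a1a, col17a1a, col17a1b, col18a1, col27a1a and col27a1b, the mean ratios ran from -0.28 at col27a1b to 0.10 at col6a2 at 6 dpf, and from -0.21 at col6a2 to 0.25 at col15a1a at 3 dpf. Across all chains 5 of 27 kept 1 sign on all 4 arrays, against 25.3% of all genes. The ceramide transfer gene col4a3bp, whose symbol alone matches the collagens, had a stage change of -0.01 ± 0.07 (SE; limma, adjusted p = 0.892) and a genotype mean of 0.05.

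Of the 31 measured genes that process collagen, 1 passed the genotype test, beside 1.07% of all genes. The procollagen protease gene bmp1b was higher in mutants, at 0.85 ± 0.14 at 6 dpf and 0.54 ± 0.19 at 3 dpf (SD over 2 arrays). Its mean over both stages was 0.69 (limma, adjusted p = 0.0437, 0.000239 to 0.227 over the alternatives). Its paralogue bmp1a had -0.03 at 6 dpf and -0.08 at 3 dpf. No gene of either collagen list was counted by the size rule, and in the list of degradation and binding 0 of 26 passed the test. Of the other markers, and2, a fin fold fibre gene, was lower in mutants at -0.50 (limma, adjusted p = 0.0484), and the median of the skeletal muscle list was -0.18 at 6 dpf and -0.20 at 3 dpf.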

How the data were processed

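Per the file headers, the authors scanned and extracted the arrays with Agilent Feature Extraction 10.5.1.1 (the submitters' processing notes name 8.5.1.1), with probes placed on danRer6 (Zv8). The deposited intensity columns (median spot and background signals of both dyes) were used; the deposited log10 ratios and the authors' log2 series table served as checks, and 1 column of that table, a score whose row order is unknown, was not used. Mutant and wild type channels came from the labels.

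With limma, spots were corrected by normexp (offset 50), ratios by loess within arrays, and pool signals by Aquantile between arrays. Control and outlier spots and 9 misaligned control spots were left out. A gene took its brightest probe, well above background on both arrays of a pool (18917 genes). P-values were adjusted over all of them (Benjamini-Hochberg). Probe names were updated through RefSeq accessions and symbols, except that the type XXVIII genes kept the array's symbols. Of 78 collagen probes, 52 matched by accession and 26 by symbol. Another 3 probes, of 3 genes, have a collagen name in the reference but another symbol on the array, and were not taken as members.

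The members and lists were chosen with earlier results of these data known. Genes were named by class: every chain called, the 3 largest in each class and comparison, all of types I, II, IV and X, and every called gene of both collagen pathway lists; marker genes were named after their values were seen. The fits were also run on simulated data with independent noise in each pool. Such data cannot show the effect of arrays that the pools of a stage share. The number of pools limits the precision. R 4.3.3, limma 3.58.1 and Python 3.11.15 were used.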

Additional observations from a re-analysis of the deposited data

Results flagged for a closer look

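In 9 collagen chains both arrays of 1 stage put the mutant on the opposite side of wild type from both arrays of the other stage. The difference was not tested, since each stage has 1 pool per genotype, and the size of each is given as the log2 ratio at 6 dpf minus that at 3 dpf. The mutant was above wild type at 6 dpf and below it at 3 dpf in col1a1a (0.39), col1a1b (0.26), col1a2 (0.32), col5a2a (0.38), col5a3b (0.33), col6a2 (0.31), col9a2 (0.37) and col9a3 (0.18, with a 3 dpf mean of 0.00). The remaining chain, col27a1a, ran the other way, with a difference of -0.32.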

How the results depend on the processing

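The fall of collagen chains from 3 to 6 dpf held in direction under every alternative with 1 value per gene except at col4a2, whose change of 0.00 became 0.03 with Agilent processed signals and 0.10 without the 3 dpf array with the mutant in Cy5. The number of chains that fell, 19, ranged from 17 (mean over probes) to 25 (adjusted p alone), and from 18 to 19 with 1 array left out. Their median change of -1.41 was -1.61 with offset 10, -1.26 with no background subtraction or with no filter, -1.58 with processed signals, -1.12 as the mean over probes, -1.27 over every probe, -1.70 with no normalization between arrays, and -1.45 to -1.35 with 1 array left out. The fibrillar median of -1.51 was -1.69 with processed signals and -1.95 with no normalization between arrays.

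The count of 1 at 6 dpf (col10a1a) became 0 with no background subtraction, as the mean over probes, and without the 6 dpf array with the mutant in Cy3; the range with 1 array left out was 0 to 1. The count of 1 at 3 dpf (col8a1a) became 0 without the 3 dpf array with the mutant in Cy5 (0 to 1 with 1 array left out) and 2 with the smaller size limit. The count of 0 in the genotype test became 1 (col8a1a) with no filter on dim probes and ranged from 0 to 2 with 1 array left out, where the second was col28a1a. The median ratio of -0.04 at 3 dpf was -0.09 with median centring, and that of 0.08 at 6 dpf was 0.10 with offset 10, 0.06 with no background subtraction, 0.05 as the mean over probes and 0.04 with median centring. The fibrillar median of -0.04 at 3 dpf was -0.09 with processed signals, -0.07 as the mean over probes, -0.08 over every probe, -0.10 with median centring and -0.07 to -0.03 with 1 array left out; that of 0.11 at 6 dpf was 0.08 to 0.23 with 1 array left out. The causes were not tested.

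Over all genes the 202 genotype calls became 26 with processed signals, 477 over every probe, 398 with no filter, 364 or 657 without a 3 dpf array, and 4 with the authors' deposited table, in which 1 of the 3 dpf arrays was left out and the second 6 dpf column holds the mean of both 6 dpf arrays, from which the second array was worked back. The 61 and 98 genes counted by size at 3 and 6 dpf became 276 and 327 with processed signals and 605 and 336 with the deposited table, and the 1952 stage calls became 4244 with processed signals. Each ratio sets mutant against wild type on the same array. Arrays of 1 number were not paired across the stages, because they share a dye orientation and not an animal or pool. An offset of 50 pulls the log2 values of dim probes together, so their changes can be understated. With offset 10 the 6 dpf ratio of col27a1b was -0.39, against -0.28 with offset 50. That of col8a1b was 0.04 with offset 10, against 0.02 with offset 50, and -0.08 with processed signals.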
